A study of Homo sapiens with 8 samples.

Results

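The genes described here are brakes on cytokine signalling: the suppressors of cytokine signalling SOCS1, SOCS2, SOCS3, SOCS4, SOCS5 and SOCS6, their relative CISH, and the protein inhibitors of activated STAT PIAS1 and PIAS3. They were chosen by symbol from the deposited count table, and each symbol matched 1 entry, giving 9 of the 57445 genes listed. The libraries hold RNA bound to ribosomes of the human breast cancer line MDA231-BrM2, which derives from MDA-MB-231 and metastasizes to the brain, taken by translating ribosome affinity purification (TRAP). In TRAP a GFP-tagged ribosomal protein is carried by 1 cell type of a mixture, here the carcinoma cells, and anti-GFP beads pull down the ribosomes of those cells with the RNA on them. The 8 libraries form 4 groups of 2: cells with Cx43 hairpin 1 grown with astrocytes, cells with Cx43 hairpin 2 grown with astrocytes, cells with a control hairpin grown with astrocytes (the control coculture), and cells with a control hairpin grown without astrocytes (control cells alone). Both Cx43 hairpins target GJA1, which encodes the gap junction protein connexin 43. Cocultures held 1 astrocyte per carcinoma cell for 24 h. Every group carries a hairpin and the ribosome tag. There was no group of Cx43-depleted cells without astrocytes, and the species of the astrocytes and whether the line is 1 clone are not given in the sources used here. The series design calls the replicates independent, and the p-values measure the spread between such pairs of libraries.

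Cytokines such as interferons and the interleukin-6 family bind receptors that carry Janus kinases (JAKs), which phosphorylate STAT transcription factors. CISH, SOCS1, SOCS2 and SOCS3 are classical targets of STATs, and their proteins close a feedback loop. SOCS1 and SOCS3 block JAK activity directly, CISH and SOCS2 bind phosphorylated receptors, and the SOCS box shared by the family recruits a ubiquitin ligase. SOCS4, SOCS5 and SOCS6 act mostly on receptor tyrosine kinases, and PIAS1 and PIAS3 are SUMO ligases that restrain STATs. Cancer cells in the brain meet astrocytes through gap junctions made of connexin 43, and the comparisons ask what astrocytes and connexin 43 change on the carcinoma ribosomes.

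The promoter windows of these genes differ in whether they hold the short sequences known as the interferon response element and the STAT site. RefSeq windows of 250 bases before to 50 after a transcription start, on GRCh38.p14, were at hand for 7 of the 9 genes. They are shown for SOCS1 and CISH, whose windows hold a match, and for SOCS3 and SOCS4, whose windows hold none. The windows searched for SOCS6, PIAS1 and PIAS3 are not shown and hold no match. PIAS1, with no match, rose with astrocytes and fell with Cx43 depletion, as SOCS1 did, in calls that depended on single libraries. CISH, with matches, passed in neither of these comparisons. Whether a match bears on the changes below was not tested. SOCS3 had 2 windows, and the one not shown (chr17:78359618-78359917, minus strand) holds no match either. Bases outside the windows were not searched, so a site elsewhere in a promoter would be missed. Matches on either strand were searched for the interferon response element GAAANNGAAA and the STAT site TTCNNNGAA, and are shown in capitals. The windows lie at chr16:11256155-11256454 on the minus strand (SOCS1), chr3:50611725-50612024 on the minus strand (CISH), chr17:78360876-78361175 on the minus strand (SOCS3) and chr14:55026986-55027285 on the plus strand (SOCS4).
SOCS1: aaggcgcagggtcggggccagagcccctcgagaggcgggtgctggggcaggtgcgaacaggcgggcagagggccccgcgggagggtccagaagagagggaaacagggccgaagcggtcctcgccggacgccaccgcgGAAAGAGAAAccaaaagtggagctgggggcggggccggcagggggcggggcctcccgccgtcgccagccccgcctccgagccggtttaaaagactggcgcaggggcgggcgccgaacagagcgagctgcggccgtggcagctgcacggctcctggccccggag
CISH: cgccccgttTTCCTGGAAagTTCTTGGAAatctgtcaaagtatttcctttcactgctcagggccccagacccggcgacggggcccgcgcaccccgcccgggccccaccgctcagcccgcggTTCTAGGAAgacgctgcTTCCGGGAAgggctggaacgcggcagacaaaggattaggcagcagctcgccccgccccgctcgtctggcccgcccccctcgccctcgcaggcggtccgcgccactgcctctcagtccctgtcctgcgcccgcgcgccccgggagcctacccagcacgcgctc
SOCS3: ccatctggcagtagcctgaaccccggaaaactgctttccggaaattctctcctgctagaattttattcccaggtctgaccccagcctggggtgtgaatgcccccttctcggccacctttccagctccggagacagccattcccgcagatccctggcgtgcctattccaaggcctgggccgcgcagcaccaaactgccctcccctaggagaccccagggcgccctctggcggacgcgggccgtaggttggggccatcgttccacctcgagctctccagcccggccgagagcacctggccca
SOCS4: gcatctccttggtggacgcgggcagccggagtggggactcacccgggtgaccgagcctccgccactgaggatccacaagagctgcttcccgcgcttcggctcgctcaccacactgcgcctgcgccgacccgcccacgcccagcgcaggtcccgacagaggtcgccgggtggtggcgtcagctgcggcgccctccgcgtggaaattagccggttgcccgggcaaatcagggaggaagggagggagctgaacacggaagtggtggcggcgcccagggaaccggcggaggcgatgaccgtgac
The SOCS1 window holds 1 interferon response element, GAAAGAGAAA, which begins at base -113 from the start. The motif is present in 3.57% of all 35116 windows of 300 bases. The CISH window holds 4 STAT sites, which begin at bases -241, -230, -129 and -112 from the start and do not overlap each other, and 7.66% of all windows hold such a site. A match to these letters is a description of the window and not a measured binding site.

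Reads counted in genes came to between 38219702 and 48997555 per library, so that 3 counts corresponded to 0.0624 to 0.0805 CPM, which are counts relative to the scaled library total, a floor that covers counting error only. GJA1 was at 27.8 CPM in both hairpin 1 libraries, at 31.7 and 33.8 CPM in the hairpin 2 libraries, at 65.9 and 64.7 CPM in the control coculture, with 51.1 and 46.3 CPM for control cells alone. Its log2 change in the depleted cocultures against the control coculture was -1.11 (adjusted p = 7.89e-06). All 12 markers listed for the carcinoma line had reads in every library, with a summed level of 2950 to 3247 CPM in the depleted cocultures, 3845 to 3987 CPM in the control coculture and 2972 to 3215 CPM in control cells alone. Of the 14 astrocyte markers listed, 12 to 14 had a read, with a summed level of 227 to 241 CPM in the depleted cocultures, 271 to 275 CPM in the control coculture and 230 to 234 CPM in control cells alone. Of the 12 microglia and macrophage markers 5 to 7 had a read, with AIF1, C1QA, C1QB and TYROBP at 0 in all 8 libraries, and the sums were 132 to 152, 147 to 149 and 86.8 to 87.6 CPM in those same groups. All 7 fibroblast markers had reads, with sums of 422 to 498 CPM, 743 to 798 CPM and 649 to 1053 CPM in the same groups. The astrocyte sum rests largely on GLUL (6797 to 8352 counts a library), and the microglia and macrophage sum on LAPTM5 (3608 to 6504). The largest part of the carcinoma line sum is VIM, which is not particular to carcinoma cells. VIM had 56967 to 64123 counts in the depleted cocultures, 84581 and 78051 in the control coculture, and 64152 and 63351 in control cells alone. SLC1A3 was highest in the control coculture (195 and 209 counts), as was the astrocyte sum. Single markers did not all follow their sum. EPCAM, of the carcinoma line list, was highest in control cells alone (472 and 612 counts). GFAP had 712 and 701 counts with hairpin 1, 486 and 538 with hairpin 2, 536 and 477 in the control coculture, and 375 and 410 in control cells alone. These sums move with the groups, and their part in the results below was not tested. Levels are CPM computed from the deposited counts, changes are log2 fold changes, and "rose" or "fell" is used of genes with an adjusted p under 0.05 over the 15806 genes tested. All 9 members had a mean count of at least 10 and were tested.

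The set spans a wide range of abundance. Divided by the merged length of all its annotated exons in GENCODE v29, SOCS3 stood highest at 56.1 CPM per kb over the 8 libraries, with a range of 47.8 to 62.3. The lengths of the transcripts expressed and the annotation behind the counts are not known, so levels of different genes compare only roughly. SOCS5 followed at 15.4 CPM per kb, PIAS3 at 11.3 and SOCS4 at 10.6. SOCS6 was at 7.30 CPM per kb, SOCS1 at 6.66, SOCS2 at 2.19, PIAS1 at 1.02 and CISH at 0.175. The order of PIAS3 and SOCS4, that of SOCS6 and SOCS1, and that of SOCS4 and SOCS1 depended on the group. SOCS1 stood above SOCS4 in the control coculture (9.43 and 8.84 CPM per kb). It stood below SOCS4 with hairpin 1 (5.78 and 12.4), with hairpin 2 (7.03 and 11.5) and in control cells alone (4.402 and 9.74). SOCS6 stood above SOCS1 with hairpin 1 (7.75 and 5.78 CPM per kb) and in control cells alone (6.48 and 4.402), and below it in the control coculture (7.82 and 9.43), while with hairpin 2 they lay within the spread of the replicates (7.13 ± 0.206 and 7.03 ± 0.0504, SD, n = 2). PIAS3 stood above SOCS4 in the control coculture (11.2 and 8.84 CPM per kb) and in control cells alone (11.1 and 9.74). With hairpin 1 PIAS3 averaged 11.9 ± 0.131 and SOCS4 12.4 ± 0.534 CPM per kb, a gap smaller than the larger SD, and with hairpin 2 they averaged 10.9 and 11.5. The other neighbours in the order did not overlap in any of the 8 libraries. CISH rested on 26 to 48 counts a library, where the other 8 genes had at least 339.

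**Figure D1:**
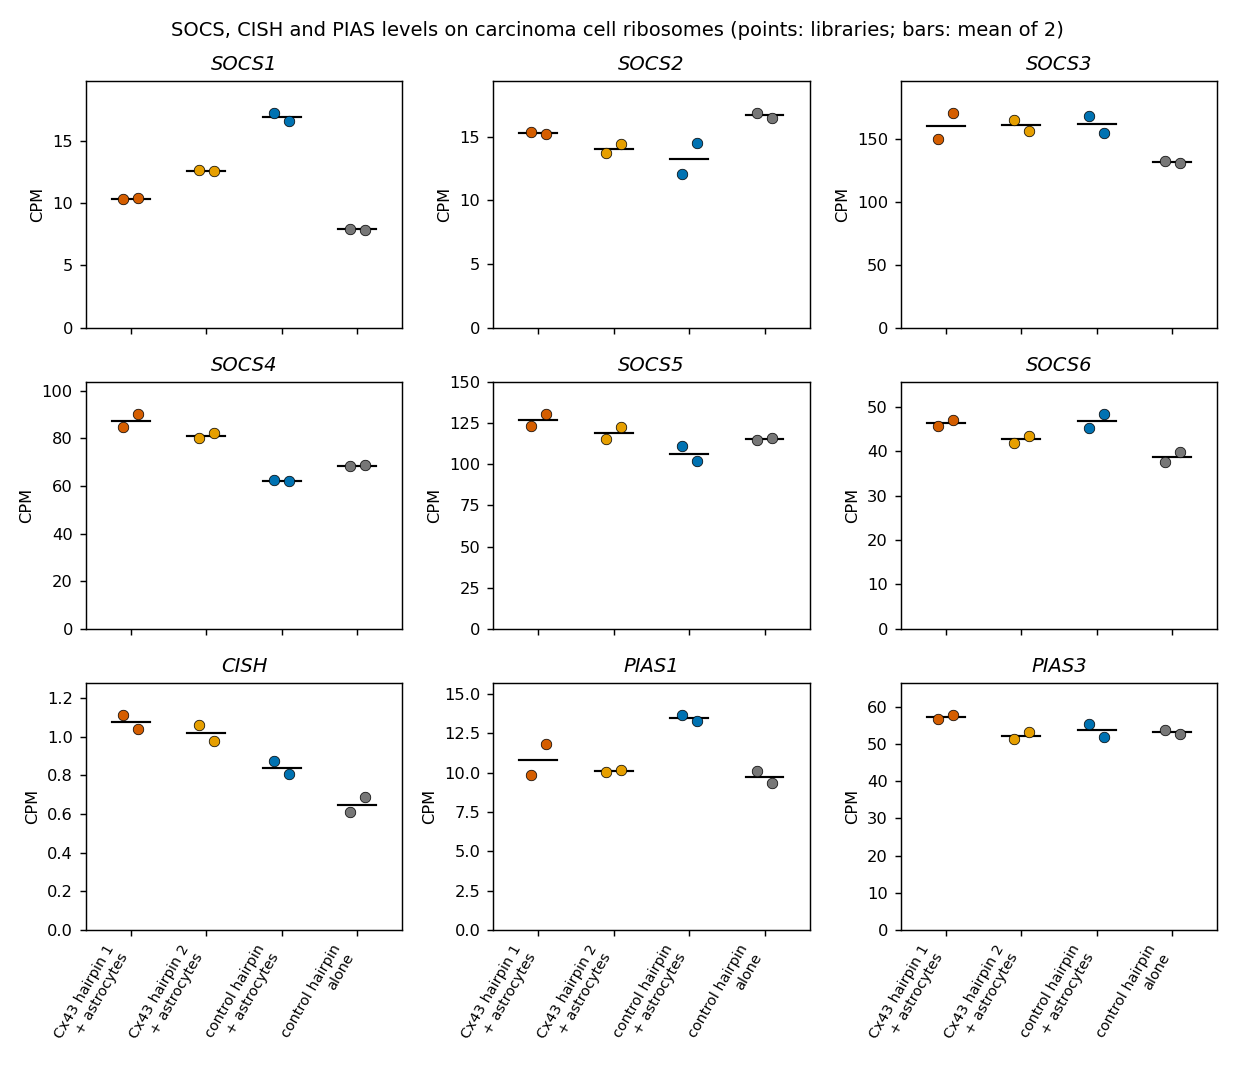
Level of each of the 9 genes in CPM (y axis, from 0) in the 8 libraries, grouped by hairpin and astrocytes. Points are libraries and bars are means of 2. SOCS1 and PIAS1 are highest in the control coculture, SOCS4 is highest in the cocultures with a Cx43 hairpin, and SOCS3 is lowest in control cells alone.

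SOCS1 and PIAS1 rose on carcinoma ribosomes in the presence of astrocytes, and SOCS3 and SOCS6 rose by less. SOCS1, which inhibits JAKs downstream of interferon receptors, had the largest change of the set, 2.14-fold. In the control coculture, against control cells alone, 4 of 9 members rose, against a background of 11.7% of all tested genes called in either direction and 8.74% called as rising. No member fell, and DESeq2 called none as falling either. SOCS2 alone was lower at an unadjusted p under 0.05, and it passed under 2 other settings given below. The median log2 change was 0.27 over the members and -0.0026 over all tested genes. In bulk libraries, a larger share of cells with the transcript and more ribosome-bound transcript per cell cannot be told apart. Only RNA bound to ribosomes was sequenced, so total levels of the transcripts were not measured.

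SOCS1 (ENSG00000185338.4) was at 17.2 and 16.6 CPM in the control coculture, against 7.95 and 7.86 CPM in control cells alone. Both coculture libraries lay above both libraries of cells alone, by about as much as the level of the cells alone. The log2 change was 1.10 (SE 0.0752, adjusted p = 3.08e-05), with a 95% interval for the fold of 1.90 to 2.41. Without each of the 8 libraries in turn its adjusted p ran from 2.35e-05 to 0.000863. SOCS3 (ENSG00000184557.3), the feedback inhibitor of the interleukin-6 family receptors, was at 168 and 155 CPM in the control coculture, against 133 and 131 CPM in control cells alone. The groups did not overlap, and the coculture libraries were farther apart than those of cells alone. Its log2 change of 0.30 (SE 0.0805, adjusted p = 0.0478) stood just inside the threshold.

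PIAS1 (ENSG00000033800.9), a SUMO ligase that restrains STATs, was at 13.7 and 13.3 CPM in the control coculture, against 10.1 and 9.32 CPM in control cells alone. The pairs did not overlap, and the log2 change was 0.47 (SE 0.102, adjusted p = 0.0191). SOCS6 (ENSG00000170677.5), which acts on receptor tyrosine kinases, was at 45.3 and 48.4 CPM in the control coculture, against 37.7 and 39.9 CPM in control cells alone. Both coculture libraries were higher, with a log2 change of 0.27 (SE 0.0689, adjusted p = 0.0373).

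These 3 smaller rises each depended on single libraries. PIAS1 lost its call without library 1 or 2 of control cells alone (adjusted p = 0.0653 and 0.113) and when either control coculture library was left out (0.108 and 0.0640). The SOCS3 call ended when library 1 or 2 was left out of control cells alone (0.175 and 0.188), the control coculture (0.257 and 0.0757) or hairpin 2 (0.0949 and 0.0953). SOCS6 lost it without the same libraries, with adjusted p of 0.218, 0.105, 0.0930, 0.185, 0.0814 and 0.0815. The call also ended with DESeq2 (0.0627), with no filter on low counts (0.0787) and when only the groups compared were fitted (0.0824). The directions stayed the same in each of these fits. SOCS1 was therefore the member whose rise did not depend on any 1 library.

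The remaining members did not pass. SOCS2 (ENSG00000120833.9), which dampens growth hormone receptor signalling, was at 12.1 and 14.5 CPM in the control coculture, against 16.8 and 16.5 CPM in control cells alone. Both coculture libraries were lower, with a log2 change of -0.33 (SE 0.0952, adjusted p = 0.0584), and it passed when no filter on low counts was used (-0.34, adjusted p = 0.0243) or when control coculture library 2 was left out (-0.48, adjusted p = 0.0277). Without control coculture library 1 the change was -0.20 (adjusted p = 0.344). SOCS4 (ENSG00000180008.8) had a log2 change of -0.14 (adjusted p = 0.195) and SOCS5 (ENSG00000171150.7) of -0.12 (adjusted p = 0.325), and both were lower in both coculture libraries. CISH (ENSG00000114737.11) was at 0.874 and 0.805 CPM in the control coculture, against 0.610 and 0.686 CPM in control cells alone, a log2 change of 0.37 with a 95% interval of -0.10 to 0.84. PIAS3 (ENSG00000131788.11), known as an inhibitor of STAT3, was at 55.5 and 51.9 CPM in the control coculture, against 53.9 and 52.6 CPM in control cells alone. Its pairs overlapped, and the 95% interval of its log2 change was -0.13 to 0.16. Pairs did not overlap for 8 of the 9 members, where 56.3% of all tested genes had pairs that did not.

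**Figure D2:**
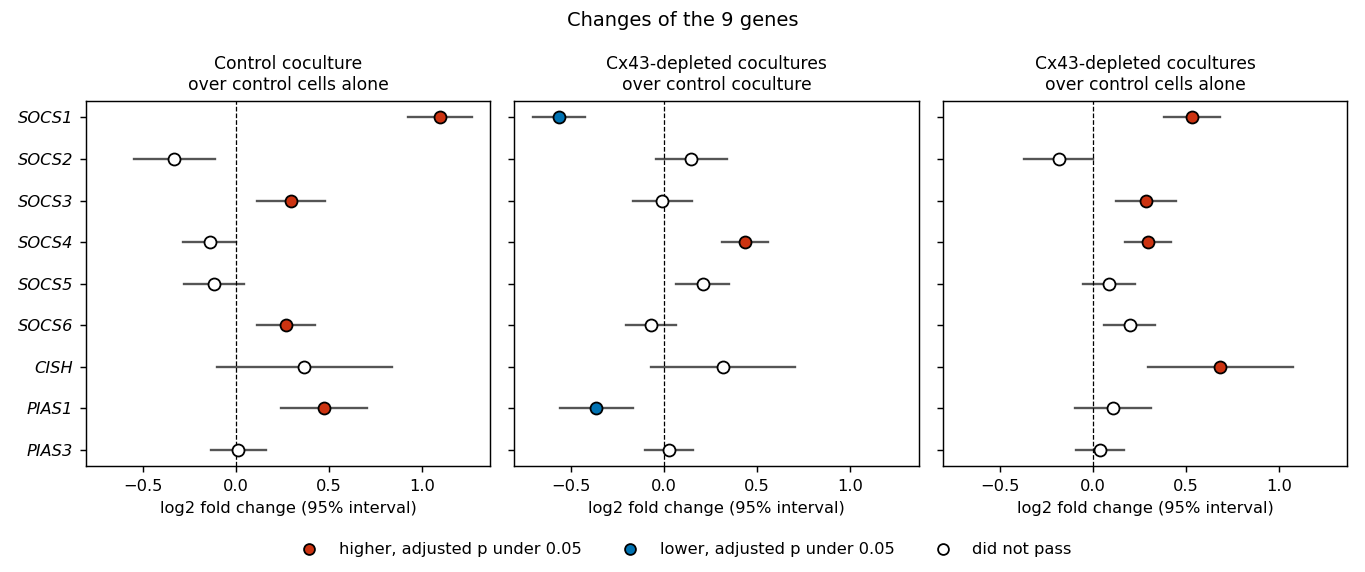
Log2 fold change of each gene with its 95% interval in 3 comparisons: control coculture over control cells alone, Cx43-depleted cocultures over control coculture, and Cx43-depleted cocultures over control cells alone. SOCS1 is at 1.10, -0.57 and 0.53 in these panels and SOCS4 at -0.14, 0.43 and 0.30, with filled points for adjusted p under 0.05.

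SOCS1 and PIAS1 fell and SOCS4 rose in the cocultures of Cx43-depleted cells. With both hairpins together set against the control coculture, 2 of 9 members fell and 1 rose, against 9.22% of all tested genes called in either direction, 5.85% falling and 3.37% rising. This comparison shares the control coculture libraries with the one above, so their values are not independent. The median log2 change was 0.027 over the members and -0.0080 over all tested genes. SOCS3, the most abundant member, did not pass in this comparison.

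SOCS1 was at 10.3 and 10.4 CPM with hairpin 1 and at 12.7 and 12.5 CPM with hairpin 2, against 17.2 and 16.6 CPM in the control coculture. All 4 depleted libraries lay below both control libraries, and all 4 lay above the 7.95 and 7.86 CPM of control cells alone. The log2 change of the depleted cocultures was -0.57 (SE 0.0624, adjusted p = 0.00106), which left 0.676 of the control level (95% interval 0.612 to 0.745). It held without each of the 8 libraries in turn (adjusted p 0.00149 to 0.0174). PIAS1 was at 9.83 and 11.8 CPM with hairpin 1 and at 10.1 and 10.2 CPM with hairpin 2, against 13.7 and 13.3 CPM in the control coculture. Its depleted libraries were also all lower, and 1 of them, library 2 of hairpin 1, stood apart from the other 3.

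The log2 change of PIAS1 was -0.36 (SE 0.0871, adjusted p = 0.0365). The call ended without control coculture library 1 or 2 (adjusted p = 0.162 and 0.159), library 1 or 2 of hairpin 2 (0.114 and 0.127) or library 1 of control cells alone (0.0540). PIAS1 shares 3260 of its 10776 exon bases with CALML4 on the opposite strand, in GENCODE v29, and 2933 with AC107871.1, also on the opposite strand, and the library kit does not mark strand. AC107871.1, matched by its identifier (ENSG00000260007), had 1 to 4 counts a library and was not tested. CALML4 did not pass in either comparison (log2 change of -0.13 with depletion, adjusted p = 0.495, and 0.24 in coculture, adjusted p = 0.251). SOCS2, SOCS5 and PIAS3 share 277, 160 and 432 exon bases with SOCS2-AS1, LINC01118 and NUDT17, so their reads too could not be told fully apart.

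SOCS4, which targets the EGF receptor, moved the other way. It was at 84.8 and 90.1 CPM with hairpin 1 and at 80.0 and 82.1 CPM with hairpin 2, against 62.5 and 62.0 CPM in the control coculture. All 4 depleted libraries were higher than those of the control coculture, and also higher than the 68.4 and 68.8 CPM of control cells alone. The log2 change was 0.43 (SE 0.0551, adjusted p = 0.00219), or 1.35-fold with a 95% interval of 1.24 to 1.47. Leaving out each library in turn gave adjusted p of 0.00135 to 0.0273.

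SOCS3 was at 150 and 170 CPM with hairpin 1 and at 165 and 156 CPM with hairpin 2, against 168 and 155 CPM in the control coculture. The libraries overlapped, and the 95% interval of the log2 change was -0.17 to 0.15. SOCS5, a regulator of EGF receptor and interleukin-4 receptor signalling, was at 123 and 130 CPM with hairpin 1 and at 116 and 122 CPM with hairpin 2, against 111 and 102 CPM in the control coculture. All its depleted libraries were higher, but the log2 change of 0.21 (SE 0.0618, adjusted p = 0.0731) passed only without library 1 of hairpin 1 (0.23, adjusted p = 0.0353).

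SOCS6 was at 45.8 and 47.1 CPM with hairpin 1 and at 41.8 and 43.6 CPM with hairpin 2, against 45.3 and 48.4 CPM in the control coculture. The values overlapped, and its log2 change was -0.07 (95% interval -0.21 to 0.06). For SOCS2 the change was 0.15 (-0.05 to 0.34), for PIAS3 0.03 (-0.10 to 0.16) and for CISH 0.32 (-0.07 to 0.70). CISH was at 1.11 and 1.04 CPM with hairpin 1 and at 1.06 and 0.978 CPM with hairpin 2, against 0.874 and 0.805 CPM in the control coculture. Its level is uncertain, because 218 exon bases lie opposite MAPKAPK3, which was at 202 and 213 CPM in the control coculture (log2 change of 0.01 with depletion, adjusted p = 0.917). Depleted and control libraries did not overlap for 5 of the 9 members, where this held for 34.6% of all tested genes.

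Each hairpin was also compared with the control coculture on its own. SOCS1 fell and SOCS4 rose with either hairpin, and no other member passed. The log2 change of SOCS1 was -0.71 for hairpin 1 (SE 0.0738, adjusted p = 0.000843), and for hairpin 2 it was -0.42 (SE 0.0727, adjusted p = 0.0149). For SOCS4 it was 0.49 under hairpin 1 (SE 0.0625, adjusted p = 0.00292), and under hairpin 2 it was 0.38 (SE 0.0625, adjusted p = 0.0120). The members called were 2 of 9 with each hairpin, where 7.82% of all tested genes were called with hairpin 1 and 4.16% with hairpin 2.

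PIAS1 was lower with hairpin 1 (log2 change -0.32, adjusted p = 0.0940) and with hairpin 2 (-0.41, adjusted p = 0.0631) and passed with neither. With hairpin 1 it passed when library 2 of that hairpin was left out (-0.45, adjusted p = 0.0420), and the change was -0.19 without library 1 of that hairpin. With hairpin 2 it passed without either hairpin 1 library (adjusted p = 0.0181 and 0.0182), with no filter on low counts (0.0174) and when only the groups compared were fitted (0.0209). SOCS5 passed with hairpin 1 (0.30, adjusted p = 0.0358) when library 1 of that hairpin was left out, and at a minimum mean count of 50 (0.25, adjusted p = 0.0483). The hairpin 2 calls needed each of the 4 libraries compared. SOCS1 lost its call there without control coculture library 1 or 2 (adjusted p = 0.110 and 0.0851) or hairpin 2 library 1 or 2 (0.149 and 0.180), and SOCS4 without the same libraries (0.0857, 0.0785, 0.114 and 0.166). The hairpin 1 call of SOCS4 was lost when only the compared groups were fitted (adjusted p = 0.0574).

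SOCS1 was higher with hairpin 2 than with hairpin 1 in both libraries, a log2 difference of 0.28 (95% interval 0.11 to 0.45) that did not pass (unadjusted p = 0.00451, adjusted p = 0.705). No member passed in hairpin 2 against hairpin 1 by edgeR or by DESeq2. SOCS1 was the 1 member with an unadjusted p under 0.05 there, and 0.0316% of all tested genes, 5 in number, were called. GJA1 itself was at 31.7 and 33.8 CPM with hairpin 2 and at 27.8 CPM in both hairpin 1 libraries.

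**Figure D3:**
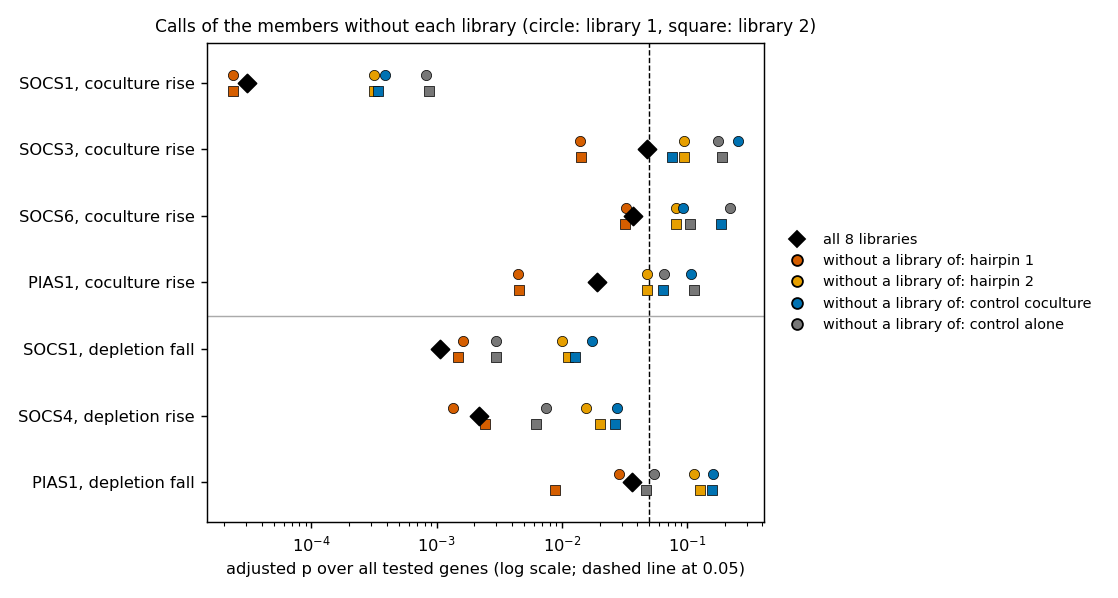
Adjusted p over all tested genes (x axis, log scale) of the members called in the coculture comparison (upper 4) and the depletion comparison (lower 3), with all 8 libraries (diamonds) and without each library (circles for library 1, squares for library 2, coloured by group). All points of SOCS1 in both comparisons and of SOCS4 lie left of the dashed line at 0.05, and those of SOCS3, SOCS6 and PIAS1 lie on both sides.

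Set against control cells alone, the depleted cocultures held higher levels of several members. SOCS1, SOCS3, SOCS4 and CISH rose, 4 of 9, where 17.1% of all tested genes were called and 10.8% rose. This comparison differs in both astrocytes and the hairpin, so the effects of these cannot be told apart, and it shares libraries with both comparisons above. SOCS1 was at 10.3 to 12.7 CPM in the depleted cocultures, against 7.86 to 7.95 CPM in control cells alone, and the log2 change was 0.53 (SE 0.0671, adjusted p = 0.00196). It held without each library (adjusted p 0.00175 to 0.0265).

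SOCS3 stood at 150 to 170 CPM in the depleted cocultures, against 131 to 133 CPM in control cells alone, a log2 change of 0.29 (adjusted p = 0.0270). SOCS4 changed by 0.30 (adjusted p = 0.00968) and CISH by 0.68 (adjusted p = 0.0285). The rise of SOCS3 did not pass when either library of control cells alone (0.142 and 0.153) or of hairpin 2 (0.0895 and 0.0782) was left out, nor did that of CISH (0.156 and 0.109, 0.0791 and 0.0777), which DESeq2 did not call either (0.122). The rise of SOCS4 did not pass without library 1 or 2 of control cells alone (0.0914 and 0.0704) or library 2 of hairpin 2 (0.0533). SOCS6 had a log2 change of 0.20 and did not pass (adjusted p = 0.0532), but did without hairpin 1 library 1 (0.21, adjusted p = 0.0427).

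The relatives outside the set, SOCS7, PIAS2 and PIAS4, gave no call in coculture or with depletion when all 8 libraries were fitted. The log2 change of SOCS7 with depletion was 0.22, and 0.30 without hairpin 1 library 1. SOCS7 was at 16.5 and 20.6 CPM with hairpin 1, 16.7 and 18.2 CPM with hairpin 2, 15.8 and 15.1 CPM in the control coculture, with 13.4 and 13.5 CPM for control cells alone. Its depleted libraries were above both control groups, and the log2 change passed against control cells alone (0.41, adjusted p = 0.0225). PIAS2 and PIAS4 had log2 changes of 0.02 and 0.06 in coculture and of 0.15 and -0.07 with depletion. At unadjusted p under 0.05 none of the 3 was called in coculture and 2 were called as higher with depletion, and DESeq2 called none in either.

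The signalling chain upstream of the brakes was described from lists of its parts, in the order in which the signal passes, and the counts stand beside 11.7% of all tested genes called in coculture and 9.22% with depletion, with all-gene medians of -0.0026 and -0.0080. Among cytokine ligands 7 of 15 tested rose in coculture, with a median log2 change of 0.68, and 7 of 15 fell with depletion, with a median of -0.32. CSF3, the granulocyte growth factor, averaged 9.62 CPM in the depleted cocultures and 22.5 CPM in the control coculture, a log2 change of -1.29 (adjusted p = 0.000148), and its coculture change was 2.62. Interleukin 6 (IL6), whose receptor is the textbook target of SOCS3, rose by 1.55 in coculture (adjusted p = 0.000163), and its fall of 0.64 with depletion (adjusted p = 0.00937) was lost without control coculture library 2 (adjusted p = 0.106). LIF, another cytokine of that family, rose by 1.04 in coculture (adjusted p = 2.97e-05). Its log2 change with depletion was -0.22 (adjusted p = 0.0546).

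Of 24 receptor genes tested, 9 rose in coculture, and 4 fell and 2 rose with depletion. The interleukin-22 receptor subunit IL22RA1 rose by 2.37 in coculture and changed by -2.24 with depletion (adjusted p = 0.00214 and 0.00163). IL22RA1 rested on few reads. It had 43 and 32 counts in the control coculture, 6 to 11 in the depleted libraries, and 8 and 9 in control cells alone. The interleukin-15 receptor subunit IL15RA changed by 0.72 in coculture and by -0.58 with depletion, and the fall was lost without control coculture library 2 (adjusted p = 0.0649). The median log2 changes of the receptors were 0.26 in coculture and -0.015 with depletion. Of the 4 JAK kinases, JAK2 rose in coculture (0.54, adjusted p = 0.00512), and none passed with depletion by edgeR or DESeq2, where JAK2 alone had an unadjusted p under 0.05.

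STAT2, which acts downstream of type I interferon receptors, averaged 12.9 CPM in the depleted cocultures, 32.4 CPM in the control coculture and 11.2 CPM in control cells alone. Its log2 change was 1.53 in coculture (adjusted p = 0.000243) and -1.33 with depletion (adjusted p = 0.000249). STAT3, the partner of PIAS3, passed in neither, with log2 changes of 0.16 (adjusted p = 0.253) and -0.10 (adjusted p = 0.440). STAT6 changed by 0.31 and -0.30, calls that held on leaving out 3 and 4 of the 8 libraries in turn. The coculture call was kept without either hairpin 1 library or control coculture library 2, and the depletion call without either hairpin 1 library or either library of control cells alone, and otherwise adjusted p ran up to 0.171 and 0.144.

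Of 25 listed target genes of STATs tested, 14 rose in coculture and 11 fell with depletion. The survival kinase PIM1 averaged 56.6 CPM in the depleted cocultures and 92.0 CPM in the control coculture, a log2 change of -0.70 (adjusted p = 7.13e-05), and it rose by 1.16 in coculture. IRF1, an interferon-induced transcription factor, changed by -0.61 with depletion (adjusted p = 0.000410) and by 0.93 in coculture. The median log2 changes of the target genes were 0.44 in coculture and -0.23 with depletion.

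Among other genes that brake the same pathway, USP18 and ISG15 had larger log2 changes than any SOCS or PIAS gene. USP18, the protease that blocks the type I interferon receptor, averaged 3.96 CPM in the depleted cocultures and 37.6 CPM in the control coculture, a log2 change of -3.26 (adjusted p = 1.78e-08), and its coculture change was 3.95. ISG15, the ubiquitin-like modifier that stabilises USP18 in human cells, changed by -3.43 with depletion and 3.74 in coculture. BCL6, a repressor that competes at STAT sites, changed by -0.65 with depletion and 0.88 in coculture, and both calls held without each library. Of 14 such genes tested, 4 rose and 1, PDLIM2, fell in coculture, and 3 fell with depletion. The fall of PDLIM2 did not pass when either library of the control coculture (adjusted p = 0.0678 and 0.0697) or of control cells alone (0.0789 and 0.0654) was left out. Their medians were 0.10 in coculture and 0.018 with depletion.

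The machinery that SOCS and PIAS proteins work with gave few calls. None of 9 subunits of the SOCS box ubiquitin ligases, such as CUL5, passed in coculture or with depletion by edgeR or DESeq2, and at unadjusted p under 0.05 none did in coculture and 2 were higher with depletion. Of 13 genes of SUMO conjugation none passed in coculture, by either tool or at an unadjusted p under 0.05. With depletion 1 of them, the SUMO protease SENP1, rose (0.32, adjusted p = 0.0300), but not without control coculture library 2 (0.209) or hairpin 2 library 1 or 2 (0.0684 and 0.126).

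**Figure D4:**
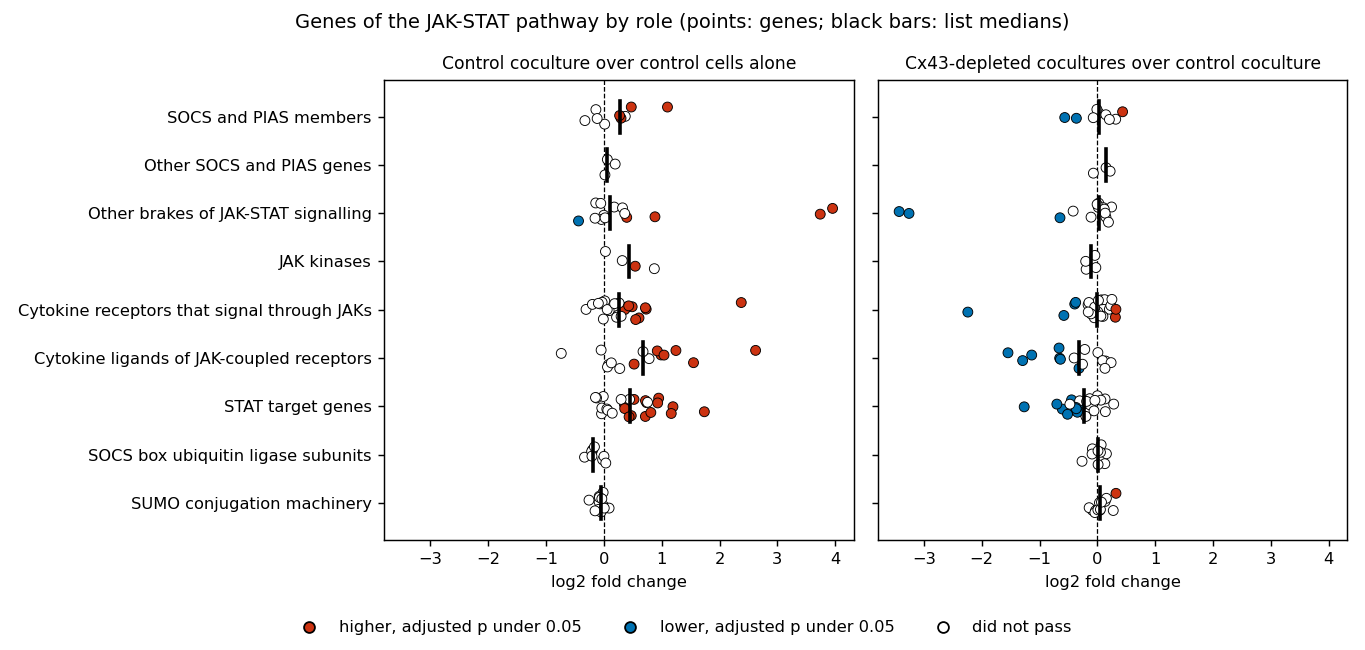
Log2 fold change (x axis) of tested genes of the JAK-STAT pathway, by list, in the control coculture over control cells alone and in the Cx43-depleted cocultures over the control coculture. Points are genes, filled where the adjusted p is under 0.05, and black bars are list medians. The members lie between -0.33 and 1.10 on the left and between -0.57 and 0.43 on the right, while USP18 and ISG15 reach 3.95 and 3.74 on the left. STAT factors are not drawn.

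For the members called in coculture or with depletion, the genes with the most similar levels over the 8 libraries were named by Pearson's r of log2(CPM + 1), out of 11968 genes searched. The libraries of 1 group share their treatment, so a high r can rest on shared differences between groups, and no p is given. The SOCS3 levels of the cocultures overlapped, so a high r there does not show a shared order of the 4 groups. SOCS1 was closest to SMOC1 (r = 0.995), PITPNC1 (0.993) and PFKFB4 (0.993). SOCS4, which had the opposite order of the cocultures, was closest to SOWAHC (0.992), DCUN1D4 (0.990) and SLC35F5 (0.990). PIAS1 was closest to the transcription factor gene POU3F3 (0.991), the junctional adhesion gene F11R (0.989) and the antigen peptide transporter TAP2 (0.982). The highest r was 0.988 for SOCS3, with ATP13A2, and 0.981 for SOCS6, with GPR180.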

How the data were processed

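The authors deposited whole-number counts per gene for 8 libraries of TRAP RNA, in 4 groups of 2, prepared with the TruSeq RNA v2 kit, per the labels. TopHat2, HTSeq, DESeq2 and hg19 appear with no version in the submitters' processing notes. Which annotation, counting mode and strand setting were used is not given in the sources used here. The table's name calls the values normalized. All were whole, and their median-of-ratios factors (0.892 to 1.14) were not close to 1, so they were treated as unnormalized counts. All 8 columns were mapped by title. HTSeq's 5 counter entries stayed out of totals and tests. Non-unique alignments were 14.2% to 26.1% of all entries and highest in control coculture library 1.

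Counts were tested by edgeR 4.0.16 (quasi-likelihood, in R 4.3.3) on 15806 genes whose mean count reached 10, with TMM scaling, group as the sole term and all 8 libraries in 1 fit. Adjusted p-values are Benjamini-Hochberg values over these genes, called under 0.05, and intervals are at 95%. The scripts were tested on simulated data. The coefficient of variation between replicates was 7.66%, and replicates differed by more than counting error (chi-square per degree of freedom 4.26 to 32.9). CPM use TMM-scaled totals. Alternatives were median-of-ratios scaling, DESeq2 1.42.0, no filter, a mean count of 50 as the minimum, only the groups compared, a replicate block and leaving out each library.

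The members and gene lists were chosen with earlier results of these data known. Named genes were the members, GJA1, up to 4 genes with the smallest p per list and contrast, the JAK, STAT and other SOCS and PIAS genes, and the 3 genes most like each called member. CUL5, the genes whose exons overlap a member's and the marker genes were named outside this rule. A gene of the pathway lists is not reported here. Promoters are RefSeq sequences on GRCh38.p14, and exon lengths and overlaps are from GENCODE v29. Neither was joined to hg19 coordinates. SOCS2 and SOCS5 had no window.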

Additional observations from a re-analysis of the deposited data

How the results depend on the processing

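SOCS1 kept its rise in coculture, its fall with depletion and its fall with hairpin 1 under every alternative run, and SOCS4 kept its rise with depletion. Median-of-ratios scaling changed no call of a member, and no alternative moved the median of all genes by more than 0.1. Members called without each library in turn ran from 1 to 4 in coculture, 0 to 3 with hairpin 2 and 1 to 5 in the depleted cocultures against control cells alone. All genes called ran from 738 to 2582 in coculture (1844 with all libraries), 343 to 2314 with depletion (1457), 281 to 2405 with hairpin 1 (1236), 150 to 1101 with hairpin 2 (658), 0 to 3 between the hairpins (5) and 531 to 4717 against control cells alone (2709). With no filter these counts were 2805 in coculture, 2269 with hairpin 1, 1191 with hairpin 2, 304 between the hairpins and 4117 against control cells alone. Fitting only the groups compared gave 1 member and 233 genes with hairpin 1 and 2 genes between the hairpins, where DESeq2 gave 22 and a minimum mean of 50 gave 3. The causes were not tested.

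Same-numbered libraries did not deviate alike throughout: their deviations had correlations of -0.717 to 0.441 over pairs of groups. With 2 libraries a group, a negative value means that differently numbered libraries deviated alike. A spread shared between groups under other numbering was not tested, and no fit here allowed for it. With a replicate block the members called were 2 in coculture, 1 with hairpin 2 and 2 against control cells alone, and all genes called were 1160, 700 with depletion, 446 with hairpin 1, 319, 0 between the hairpins and 1502. Calls lost under the block included those of SOCS3 and SOCS6 in coculture (adjusted p = 0.103 and 0.0626), PIAS1 with depletion (0.0833) and SOCS1 with hairpin 2 (0.0513). Others were SOCS3 and CISH against control cells alone (0.0644 and 0.0562) and STAT6 in coculture and with depletion (0.0611 and 0.0542). With depletion SENP1 (0.0776) lost its call, as did BCL3 (0.0571) and IFNLR1 (0.0725), which are in the pathway lists.

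Changes near 0 that had not passed turned sign. Without each library in turn, log2 changes in coculture ran from -0.0363 to 0.0441 for PIAS3 (-0.0012 with no filter), -0.0110 to 0.0236 for PIAS2 and -0.0218 to 0.120 for PIAS4. With depletion they ran from -0.0595 to 0.0490 for SOCS3 and -0.0138 to 0.0762 for PIAS3. With hairpin 1 they ran from -0.109 to 0.0825 for SOCS3 and -0.0597 to 0.0394 for SOCS6. With hairpin 2 they ran from -0.0520 to 0.0517 for SOCS3 (0.0032 with no filter), -0.0427 to 0.234 for SOCS2 and -0.0759 to 0.0098 for PIAS3. Between the hairpins they ran from -0.0915 to 0.100 for SOCS3 and -0.229 to 0.0397 for PIAS1. Depth limits CISH, with 26 to 48 counts a library.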
